A study of Mus musculus with 2 samples.

Results

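Npr3-positive endothelial cells of the mouse heart were described 14 days after myocardial infarction (MI) and after sham surgery. They were chosen by their counts: at most 25% mitochondrial UMIs, at least 2 UMIs over Pecam1, Cdh5, Egfl7 and Emcn, at least 1 Npr3 UMI, at most 2 UMIs over the mesothelial genes Msln, Upk3b and Krt19, and less than 1% of UMIs from the fibroblast genes Dcn and Col1a1. A UMI, or unique molecular identifier, marks 1 captured mRNA molecule. The rule found 373 cells among 14892 cell barcodes, 204 of 8555 in the MI library and 169 of 6337 in the Sham library. They were set beside the 2514 cells that met the same limits and had no Npr3 UMI, 369 in MI and 2145 in Sham.

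Cells of both groups were profiled by Drop-seq, a droplet method that captures the 3′ ends of mRNA with a barcode for each cell. The mice were male C57BL6/J wild type animals aged 8 to 10 weeks. In the MI group the left anterior descending coronary artery was tied, and in the Sham group the same operation was done without tightening the suture. The study's purpose was to tell apart the kinds of cell in the infarcted heart. MI was represented by 1 heart and Sham by a pool of 4 hearts, each sequenced as 1 library. Neither group thus had a replicate, no test between conditions was possible, and all intervals are at 95% and cover only counting error. The labels describe hearts that were fixed in paraformaldehyde and embedded, and do not say which region the cells came from or how they were dissociated. They also exclude mice by the pressure gradient of an aortic constriction, an operation other than the coronary ligation described.

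Npr3 encodes natriuretic peptide receptor C, a receptor without a guanylyl cyclase domain that binds natriuretic peptides and removes them from the circulation. In the mouse heart it marks the endocardium, the endothelial lining of the chambers, which is distinct from the endothelium of the coronary capillaries in the myocardium. Capillary endothelium takes up fatty acids for the heart muscle and carries proteins for that task, among them Cd36, Fabp4 and Gpihbp1, whereas endocardium secretes factors such as neuregulin 1 that act on the underlying muscle. Npr3 lies on chromosome 15 at chr15:11839896-11907287, on the minus strand (all coordinates are mm10).

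The libraries differed in depth. The MI data held 33275336 UMIs with a median of 2466 per barcode, and the Sham data held 11307405 UMIs with a median of 1424. Each barcode had at least 500 genes. The libraries shared 5 barcodes, and no barcode was an Npr3-positive cell in both. Levels are therefore given as CPM (the gene's share of UMIs scaled to 1000000) of the summed cells of a group, and shares of cells with a UMI are also given after each cell was thinned to 500 UMIs.

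Npr3-positive cells were deeper than Npr3-negative cells in both libraries. Their median was 4479.5 UMIs in MI, against 2942 in MI Npr3-negative cells, and 1955 in Sham, against 1440 in Sham Npr3-negative cells. The lowest, median and highest Npr3 count per cell were 1, 6 and 43 UMIs in MI and 1, 5 and 40 UMIs in Sham. Npr3 itself was at 1339 (1275 to 1405) CPM in MI Npr3-positive cells and 2857 (2698 to 3023) CPM in Sham Npr3-positive cells. Since the rule used Npr3, this is a description of the chosen cells.

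Of the 315 MI cells with an Npr3 UMI, 313 met the mitochondrial limit, 208 of these had at least 2 endothelial UMIs, and 207 and then 204 met the mesothelial and fibroblast limits. In Sham the same steps left 274, 273, 177, 173 and 169 cells. Some members lay at the edges of the rule. Exactly 2 endothelial UMIs were found in 2 MI and 13 Sham members, and exactly 1 endothelial UMI kept out 6 MI and 12 Sham cells that met the other limits. A fibroblast share from 0.5% to 1% was found in 16 MI and 20 Sham members, and a share of 1% or more kept out 3 MI and 4 Sham cells. Exactly 1 Npr3 UMI was found in 31 MI and 28 Sham members, and at least 5 in 121 MI and 99 Sham members.

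The cells carried genes of an endocardial marker list that the rule did not use. The list was chosen with earlier results of these data known, so its levels are a description of the cells. Of the 13 other genes on the endocardial marker list, 12 had a UMI in MI Npr3-positive cells, where Hapln1 was at 0, and 13 had one in Sham Npr3-positive cells. Their summed level was 4618 CPM in Npr3-positive and 1182 CPM in Npr3-negative cells of MI, and 4650.5 CPM in Npr3-positive and 289 CPM in Npr3-negative cells of Sham. At least 1 such UMI was present in 204 of 204 MI members and in 156 of 169 Sham members, and after thinning in 87.7% and 81.7% of members. Among Npr3-negative cells the thinned shares were 40.7% in MI and 11.4% in Sham. Plvap and Vwf held 853 and 437 of the 1827 list UMIs of MI Npr3-negative cells. Nfatc1, a transcription factor of the developing endocardium, was low in every group, at 13.0 CPM in Npr3-positive and 22.0 CPM in Npr3-negative cells of MI, and at 28.5 and 32.5 CPM in the same groups of Sham.

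Npr3-positive and Npr3-negative cells were compared as a description, since the split itself was made on counts of the same cells. A gene counted as measured with at least 30 UMIs over both groups and a UMI in at least 5% of the cells of 1 group. In MI, 591 of 8591 measured genes were higher by 2-fold or more (6.88%) and 749 lower by 2-fold or more (8.72%) in Npr3-positive cells. In Sham, 513 of 6563 were higher by 2-fold or more (7.82%) and 493 lower by 2-fold or more (7.51%). Of 6321 genes measured in both libraries, 211 were higher by 2-fold or more in both (3.34%) and 216 lower by 2-fold or more in both (3.42%). Among endocardial list genes other than Npr3, 9 of 11 measured in MI and 9 of 10 measured in Sham were higher by 2-fold or more in Npr3-positive cells and 0 were lower by 2-fold or more. The median log2 fold change of the list was 2.45 in MI and 4.12 in Sham, beside 0.01 and 0.02 over all measured genes.

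The noncoding RNA H19 stood first among the genes higher in Npr3-positive cells of both libraries. They were ranked by the interval bound of the ratio nearest 1 in the library where it was nearer. H19, an imprinted transcript of chromosome 7 (chr7:142575529-142578143), was at 3728 (3621 to 3838) CPM in Npr3-positive and 235 (212 to 261) CPM in Npr3-negative cells of MI. In Sham it was at 1397 (1286 to 1514) CPM in Npr3-positive and 5.03 (3.15 to 7.62) CPM in Npr3-negative cells. Igf2, the growth factor gene next to H19 (chr7:142650766-142666816), was at 2276 and 147 CPM in Npr3-positive and Npr3-negative cells of MI. Its levels in the same groups of Sham were 796 and 59.7 CPM. Npr3-positive over Npr3-negative cells gave log2 fold changes of 3.99 (3.83 to 4.14) in MI and 8.12 (7.50 to 8.80) in Sham for H19, and 3.95 (3.76 to 4.16) and 3.74 (3.50 to 3.98) for Igf2. Both RNAs were uneven from cell to cell. H19 had no UMI in 33 of 204 MI and 109 of 169 Sham members, with medians of 13 and 0 UMIs and highest counts of 193 and 45. Igf2 had no UMI in 78 MI and 119 Sham members.

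The other leading genes of this ranking were Mal, Smoc1, Ephx2, Ahsg, Bex4, Spon1, Plagl1 and Tmem108. Mal, which encodes a proteolipid of membrane rafts, was at 156 CPM in Npr3-positive and 3.23 CPM in Npr3-negative cells of MI, and at 87.9 and 3.43 CPM in those of Sham. Smoc1, a secreted antagonist of BMP signalling, was at 619.5 and 34.3 CPM in MI and at 219 and 1.60 CPM in Sham. Ephx2, the soluble epoxide hydrolase, was at 471 and 30.4 CPM in MI and at 105 and 2.52 CPM in Sham. For each of these 3 genes, the 2 Npr3-positive groups stood above both Npr3-negative groups, and the log2 fold changes ran from 3.95 (3.52 to 4.42) for Ephx2 in MI to 7.09 (5.99 to 8.45) for Smoc1 in Sham.

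Ahsg encodes the plasma protein fetuin-A and was at 97.0 and 3.88 CPM in Npr3-positive and Npr3-negative cells of MI and at 124 and 0.229 CPM in Sham. The imprinted zinc finger gene Plagl1 was at 561 and 42.0 CPM in MI and at 99.8 and 0.915 CPM in Sham. Spon1 encodes F-spondin, a secreted matrix protein, and was at 92.9 and 3.88 CPM in MI and at 192 and 12.1 CPM in Sham. The next genes of the ranking were the mesenchymal cadherin Cdh11, the ephrin receptor Epha7, the cytochrome P450 Cyp1b1, the protease Bace2 and the matrix protein Hmcn1, with log2 fold changes in MI from 3.28 (3.04 to 3.53) for Bace2 to 4.05 (3.21 to 5.04) for Epha7.

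Endocardial list genes covered a wide range of levels. Cytl1, a small secreted protein, was at 49.7 (38 to 63.9) CPM in Npr3-positive and 2.59 (0.705 to 6.62) CPM in Npr3-negative cells of MI, and at 981 (889 to 1080.2) and 22.4 (18.2 to 27.3) CPM in those of Sham. Vwf, the von Willebrand factor of blood clotting, was at 825 and 283 CPM in MI and at 746 and 48.2 CPM in Sham. Plvap, a protein of endothelial fenestrae and caveolae, was at 1097 and 552 CPM in MI and at 411 and 14.2 CPM in Sham. Plvap was thus near 2-fold higher in Npr3-positive cells of MI, with a log2 fold change of 0.99 (0.87 to 1.12), and further apart in Sham, with 4.86 (4.43 to 5.30). Among transcription factors of the heart, Gata4 was at 25.3 and 3.88 CPM in MI and at 71.3 and 3.66 CPM in Sham, Gata6 at 438 and 95.1 CPM in MI and at 252 and 34.1 CPM in Sham, and Hand2 at 205 and 33.0 CPM in MI and at 116 and 4.57 CPM in Sham.

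Capillary genes were lower in Npr3-positive cells. Of 14 on the capillary list, 9 of 10 measured in MI and 13 of 14 measured in Sham were lower by 2-fold or more and 0 higher by 2-fold or more, with median log2 fold changes of -3.74 and -1.82. Fabp4, the fatty acid carrier of capillary endothelium, was at 822 CPM in Npr3-positive and 4613 CPM in Npr3-negative cells of MI, and at 5691 and 15108 CPM in those of Sham. Gpihbp1, which anchors lipoprotein lipase on capillaries, was at 28.5 and 726 CPM in MI and at 302 and 1239 CPM in Sham. Sparcl1, a secreted matrix-associated protein, led the lower ranking, at 31.8 (22.6 to 43.5) and 1634 (1571 to 1699) CPM in MI and at 544 (476 to 619) and 2905 (2855 to 2956) CPM in Sham. The tight junction gene Cldn5 had 1 UMI in MI Npr3-positive cells, a log2 fold change of -5.99 (-11.31 to -3.47), and was at 54.6 and 282 CPM in Npr3-positive and Npr3-negative cells of Sham. Apln, which encodes the peptide apelin, had 0 UMIs in MI Npr3-positive cells, so its log2 fold change there was at most -5.11 with 3 counts over the group as the floor.

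The rest of the lower ranking was Nav3, Rsad2, Lmo1, Btnl9, Meox2, Sema3g, Rbp7 and Ly6a. Nav3 and Lmo1 had 2 UMIs each in MI and 0 in Sham Npr3-positive cells. Ly6c1 and Ly6c2 are near-identical and Ly6a is related to them, so reads could have been split among these genes and their separate levels are uncertain. Meox2, a homeobox factor of capillary endothelium, had 1 UMI in MI Npr3-positive cells and was at 35.6 CPM in MI Npr3-negative cells.

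**Figure D1:**
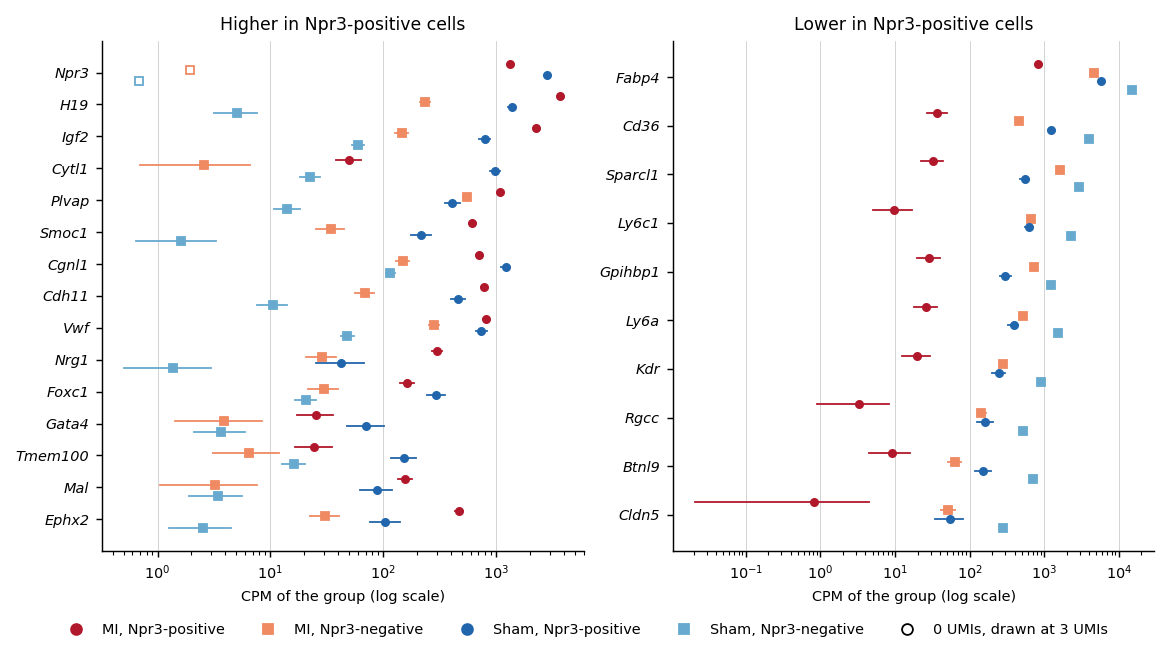
Summed expression of identity genes in CPM (log axis) in the 4 groups of cells, with 95% Poisson intervals; circles are Npr3-positive and squares Npr3-negative cells, and an open symbol marks a gene with 0 UMIs drawn at 3 UMIs. In the left panel the Npr3-positive groups lie to the right of the Npr3-negative group of the same library, and in the right panel to the left of it.

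These levels differed with the number of Npr3 UMIs in both libraries. The 28 Sham members with exactly 1 Npr3 UMI carried Fabp4 at 13480.3 CPM, near the 15108 CPM of Npr3-negative cells, whereas members with 2 to 4, 5 to 9 and 10 or more Npr3 UMIs had 6012, 2873 and 3336 CPM. H19 ran the other way. It was at 5.03 CPM in Sham cells with no Npr3 UMI and 60.2 CPM in those with 1, and at 1246, 1641 and 2086 CPM in the 3 higher classes. In MI, H19 was at 235 CPM in cells with none, 2597 CPM in the 31 cells with 1, and 4357, 3398 and 3921 CPM above. Fabp4 was at 4613, 1631, 1161, 877 and 466 CPM over the same 5 classes of MI, and Gpihbp1 at 726, 178, 26.6, 6.38 and 7.17 CPM. MI cells with 1 Npr3 UMI were thus near the higher classes in H19, and lay between the cells with none and the higher classes in both capillary genes. Median depth over the classes from 0 to 10 or more Npr3 UMIs was 2942, 3422, 2955.5, 4355.5 and 8413 UMIs in MI and 1440, 2090, 1611, 1886 and 3432 UMIs in Sham, and its part in these levels was not tested. Comparisons of MI with Sham below are therefore also given for the 173 MI and 141 Sham cells with at least 2 Npr3 UMIs where capillary genes are concerned.

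**Figure D2:**
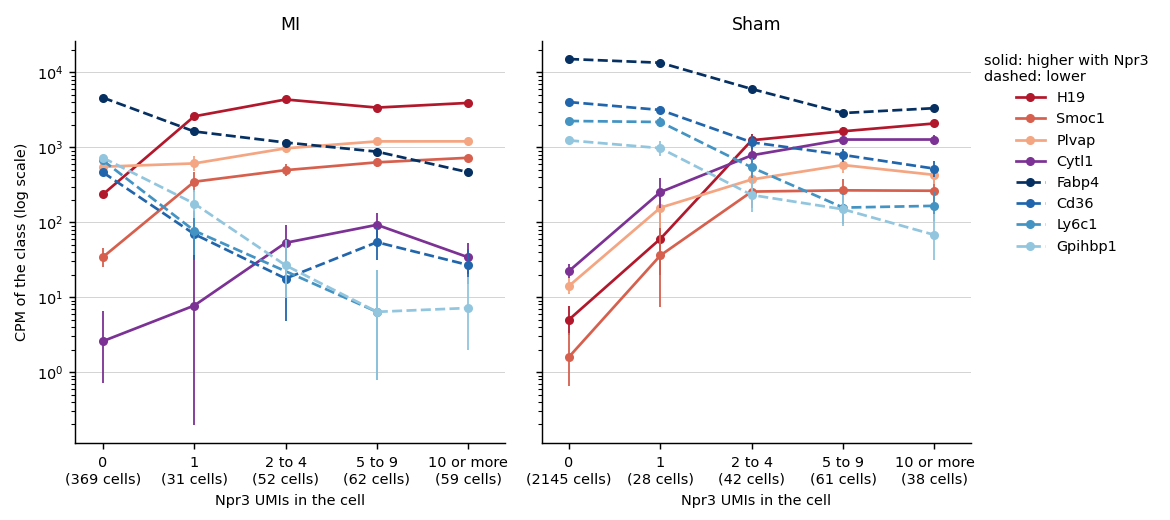
Levels in CPM (log axis) of 4 genes higher and 4 genes lower in Npr3-positive cells, by the number of Npr3 UMIs in the cell, with 95% Poisson intervals; a class with 0 UMIs of a gene is not drawn. In Sham, the 28 cells with 1 Npr3 UMI have Fabp4 and Ly6c1 near the level of cells with none, and in MI the 31 such cells have H19 near the level of the higher classes but Gpihbp1 above it.

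Npr3 UMIs were rare in cells that should lack the gene. In cells gated as macrophages, Npr3 was at 2.79 CPM (1.75 to 4.23) in MI, with a UMI in 0.573% of 3662 cells, and at 3.74 CPM (1.61 to 7.37) in Sham, with a UMI in 0.514% of 1363 cells. Among gated lymphocytes, 3 of 160 MI cells had an Npr3 UMI, and 0 of 45 Sham cells, which allows a share of up to 6.67% with 3 counts as the floor and of up to 7.87% by the Clopper-Pearson interval. Median depth was 1761 UMIs in MI and 1365 in Sham macrophages. Endothelial cells stood far above this background, at 592 CPM in MI and 251 CPM in Sham over all cells within the limits. Sham cells gated as mesothelial, the covering layer of the heart, formed an exception, with Npr3 at 574 CPM (481 to 680.3) and a UMI in 41 of 91 cells, against 3.39 CPM (1.24 to 7.38) and 6 of 200 cells in MI. The limit on mesothelial UMIs keeps such cells out of the Npr3-positive group, and it removed 4 Sham cells.

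**Figure D3:**
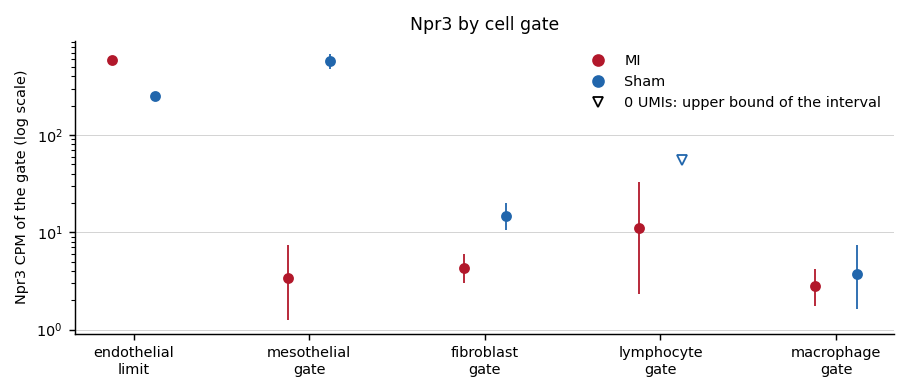
Npr3 level in CPM (log axis) in gated cell types of the MI and Sham libraries, with 95% Poisson intervals; the open triangle is the upper bound of a gate with 0 UMIs. The endothelial gates and the Sham mesothelial gate lie at 251 CPM or above, and the macrophage gates at 2.79 CPM in MI and 3.74 CPM in Sham.

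Npr3-positive cells made up a larger share of MI than of Sham endothelial cells and a like share of each library. They were 204 of 573 MI cells within the endothelial limit, 35.6% (31.7 to 39.7), and 169 of 2314 Sham cells, 7.30% (6.28 to 8.44). They formed, of all cells within the mitochondrial limit, 2.42% (2.10 to 2.77) in MI and 2.68% (2.30 to 3.11) in Sham, while all endothelial cells were 6.79% and 36.7%. Thinning to 500 UMIs before the rule was applied gave 59 of 314 cells, 18.8%, in MI and 64 of 1282 cells, 4.99%, in Sham. With at least 2 Npr3 UMIs the shares were 30.2% and 6.09%. The share depends on how many endothelial cells of other kinds each preparation yielded, and yield and abundance cannot be told apart in 1 library per group.

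Within Npr3-positive cells, MI and Sham differed in matrix genes, capillary genes, cell cycle genes and flow-responsive transcription factors. Of 6892 measured genes, 910 were higher by 2-fold or more (13.2%) and 729 lower by 2-fold or more (10.6%) in MI, with a median log2 fold change of 0.03. In Npr3-negative cells, 793 of 7890 were higher by 2-fold or more (10.1%) and 700 lower by 2-fold or more (8.87%). The Npr3-positive and Npr3-negative ratios come from the same 2 libraries.

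Genes of the wound matrix were higher in MI. On the injury matrix list, 9 of 10 measured genes were higher by 2-fold or more in MI Npr3-positive cells and 0 lower by 2-fold or more, with a median log2 fold change of 2.68. Fn1, the matrix glycoprotein fibronectin, was at 2055 (1976 to 2137) CPM in MI and 145 (111 to 186) CPM in Sham Npr3-positive cells, a log2 fold change of 3.83 (3.46 to 4.22). Tgfbi, a secreted matrix protein that binds integrins, was at 611 CPM in MI and 49.9 CPM in Sham, a log2 fold change of 3.62 (2.99 to 4.32). Thbs1, the matricellular protein thrombospondin 1, was at 227 CPM in MI and 9.50 CPM in Sham, a log2 fold change of 4.58 (3.20 to 6.46) that rests on 4 Sham UMIs. Npr3-negative cells showed the list as well, with 9 of 10 measured genes higher by 2-fold or more in MI and a median of 5.10.

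Microfibril, elastic fibre and collagen genes were also among the 12 leading genes. Mfap2, a microfibril protein, was at 444 (408 to 483) CPM in MI and 16.6 (6.68 to 34.3) CPM in Sham Npr3-positive cells, a log2 fold change of 4.74 (3.69 to 6.06), beside 2.67 (2.12 to 3.23) in Npr3-negative cells. Fbln5, an elastic fibre protein, was at 143 CPM in MI and at 4.75 CPM in Sham, where it had 2 UMIs, a log2 fold change of 4.92 (3.04 to 7.97). Col3a1, a fibrillar collagen chain, was at 1969 (1891 to 2049) CPM in MI and 131 (98.4 to 170.0) CPM in Sham, a log2 fold change of 3.91 (3.53 to 4.33), and 41.8% of the Sham UMIs lay in 1 cell.

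Collagen RNA was also counted in cells that do not make it. Col3a1 was at 1996 CPM in MI lymphocytes and 956 CPM in MI macrophages, against 90.2 and 81.8 CPM in those of Sham. Its level in MI Npr3-positive cells was thus no higher than in MI lymphocytes. Fn1 was at 628 CPM in MI lymphocytes and 0 CPM in the 45 Sham lymphocytes, and Thbs1 at 182 and 0 CPM, so the Thbs1 level of MI Npr3-positive cells was near the background of that library. Mfap2 was at 59.5 CPM and Tgfbi at 29.7 CPM in MI lymphocytes, below their levels in MI Npr3-positive cells. The 7 fibroblast markers that the rule did not use summed to 4799 CPM in MI and 1470.2 CPM in Sham Npr3-positive cells, with 7 of 7 detected in each, and to 4863 and 848 CPM in Npr3-negative cells. Their part in the matrix differences was not tested.

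Other genes of the leading 12 were lower in MI lymphocytes than in MI Npr3-positive cells. Cd55, which protects cells from complement, was at 1114 (1056 to 1175) CPM in MI and 80.8 (55.9 to 113) CPM in Sham Npr3-positive cells, a log2 fold change of 3.79 (3.30 to 4.32), and at 105 and 53.3 CPM in Npr3-negative cells, a log2 fold change of 0.98 (0.69 to 1.28). In MI lymphocytes Cd55 was at 78.1 CPM. Tmem158, a membrane protein gene, was at 704 (658 to 753) CPM in MI and 54.6 (34.6 to 82.0) CPM in Sham, a log2 fold change of 3.69 (3.09 to 4.35), with 7.44 CPM in MI lymphocytes. Gdf6, a BMP-family ligand, was at 139 CPM in MI and had 1 UMI in Sham Npr3-positive cells, a log2 fold change of 5.88 (3.38 to 11.19), with 0 UMIs in MI lymphocytes. Clca1 was at 156 CPM in MI and had 2 UMIs in Sham, a log2 fold change of 5.03 (3.16 to 8.09), with 7.44 CPM in MI lymphocytes and 85.5 CPM in MI fibroblasts. The imprinted gene Mest was at 254 CPM in MI and 14.3 CPM in Sham, a log2 fold change of 4.15 (3.01 to 5.61), beside 1.20 (0.97 to 1.42) in Npr3-negative cells and 3.72 CPM in MI lymphocytes. With at least 2 Npr3 UMIs the log2 fold change was at least 4.02 for Gdf6, which then had 0 Sham UMIs, 5.81 (3.31 to 11.12) for Clca1 and 5.44 (3.57 to 8.49) for Mest.

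Cdh2 led the higher ranking. It encodes N-cadherin, an adhesion protein of mesenchymal and muscle cells, and was at 258 (230.0 to 288) CPM in MI Npr3-positive cells, with a UMI in 52.9% of them, and at 0 UMIs in Sham Npr3-positive cells. With 3 counts over the Sham group as the floor, its log2 fold change was at least 5.18. In Npr3-negative cells Cdh2 was at 83.4 CPM in MI and 4.80 CPM in Sham, and in MI lymphocytes and fibroblasts at 81.8 and 282 CPM. Cdh2 stands on the mesenchymal transition list, of which 5 of 9 measured genes were higher by 2-fold or more in MI Npr3-positive cells and 0 lower by 2-fold or more, with a median of 3.49. The 5 were Cdh2, Fn1, Acta2, Tagln and S100a4. Acta2 and Tagln, contractile genes of smooth muscle, were at 213 and 117 CPM in MI and at 19 and 4.75 CPM in Sham, and 35.2% and 33.6% of their MI UMIs lay in 1 cell. They were lower than in MI Npr3-negative cells, which had 603 and 371 CPM. Genes of the mesenchymal transition list were also higher in MI than Sham among Npr3-negative cells. There 7 of 11 measured genes were higher and 1 lower by 2-fold or more, with a median of 2.05.

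**Figure D4:**
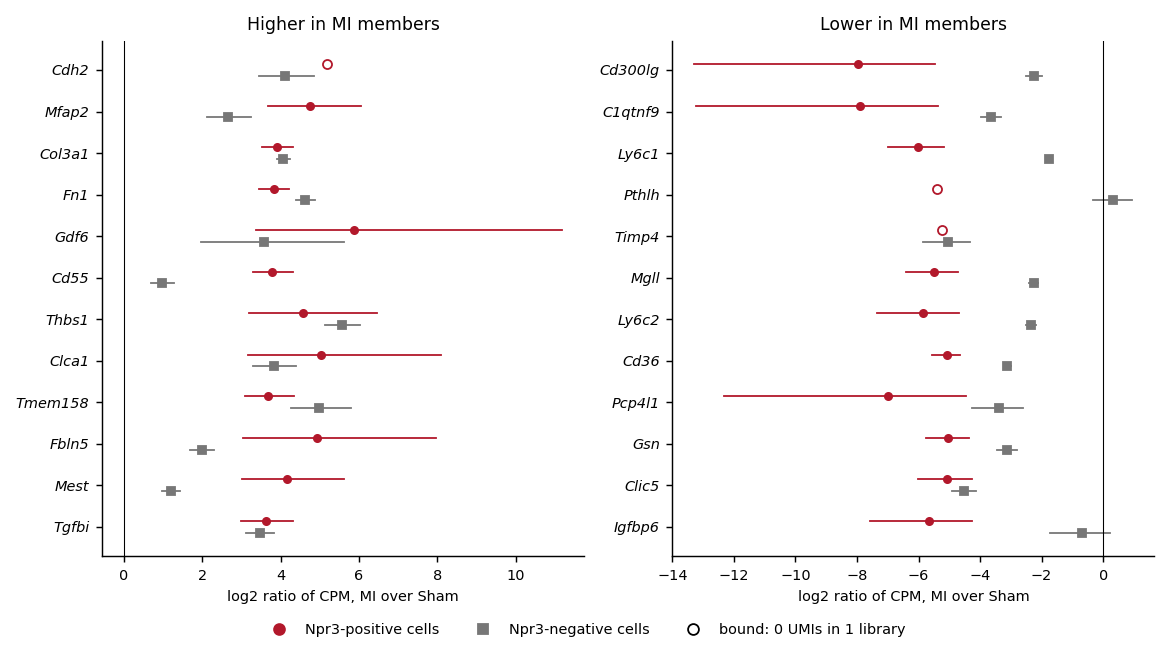
log2 fold changes of MI over Sham CPM for the 12 leading genes of each direction in Npr3-positive cells (circles), beside the same genes in Npr3-negative cells (squares), with 95% conditional binomial intervals; open circles are bounds for genes with 0 UMIs in 1 library. Cd55 and Mest lie further from 0 in Npr3-positive cells, and Pthlh and Igfbp6 have squares near 0.

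Capillary genes were the lowest in MI relative to Sham. Each of the 10 measured genes of the capillary list was lower by 2-fold or more in MI Npr3-positive cells, with a median log2 fold change of -4.49. Among cells with at least 2 Npr3 UMIs, 8 of 8 measured genes were lower by 2-fold or more, with a median of -3.67, and in Npr3-negative cells 13 of 14 were, with a median of -2.91. Cd36, a fatty acid transporter, was at 36.7 (26.8 to 49.1) CPM in MI and 1242 (1138 to 1353) CPM in Sham Npr3-positive cells, a log2 fold change of -5.08 (-5.55 to -4.64) and of -4.56 (-5.10 to -4.05) with at least 2 Npr3 UMIs. Cd300lg, a receptor-like protein of capillary endothelium, had 1 UMI in MI and was at 204 CPM in Sham, a log2 fold change of -7.97 (-13.29 to -5.45); with at least 2 Npr3 UMIs it had 0 UMIs in MI, and the change was at most -6.00. Timp4, an inhibitor of matrix metalloproteinases, had 0 UMIs in MI and was at 92.6 (65.9 to 127) CPM in Sham, a log2 fold change of at most -5.24. With at least 2 Npr3 UMIs, Timp4 was at 41.4 CPM in Sham, and its change was at most -3.92. In Sham lymphocytes, which should lack both, Cd36 was at 120.2 CPM and Fabp4 at 301 CPM, below their levels in Sham Npr3-positive cells.

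Further genes of the lower 12 were enzymes and secreted factors. Mgll, the lipase that cleaves monoglycerides, was at 11.4 (6.24 to 19.1) CPM in MI and 515 (449 to 589) CPM in Sham Npr3-positive cells, a log2 fold change of -5.50 (-6.39 to -4.72). C1qtnf9, a secreted protein related to adiponectin, had 1 UMI in MI and was at 195 CPM in Sham, a log2 fold change of -7.90 (-13.22 to -5.38). With at least 2 Npr3 UMIs it had 0 UMIs in MI and 97.6 CPM in Sham, a change of at most -5.16. Pthlh, parathyroid hormone-like hormone, had 0 UMIs in MI and was at 102 (73.9 to 138) CPM in Sham Npr3-positive cells, a log2 fold change of at most -5.38, while Npr3-negative cells had 20.0 CPM in MI and 16 CPM in Sham. Igfbp6, which binds insulin-like growth factors, was at 3.26 CPM in MI and 166 (129.6 to 210.1) CPM in Sham, a log2 fold change of -5.67 (-7.59 to -4.25), and in Npr3-negative cells at 7.76 and 12.6 CPM. The summed levels of Pthlh and Igfbp6 were thus high in Sham Npr3-positive cells and low in the other 3 groups. A minority of Sham members carried them: Pthlh had a UMI in 12 of 169 and Igfbp6 in 42 of 169. After thinning these shares were 2.37% and 6.51%. Gsn, the gene of gelsolin, which cuts actin filaments, was at 16.3 CPM in MI and 534 CPM in Sham, and 32.4% of the Sham UMIs lay in 1 cell; Gsn was at 16902 CPM in Sham fibroblasts.

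Endocardial genes differed between MI and Sham in both directions. Of 10 measured endocardial list genes other than Npr3, 3 were higher by 2-fold or more and 3 lower by 2-fold or more in MI, with a median log2 fold change of -0.32. Nrg1, the endocardial growth factor neuregulin 1, was at 303 (273 to 336) CPM in MI and 42.8 (25.3 to 67.6) CPM in Sham Npr3-positive cells, a log2 fold change of 2.83 (2.15 to 3.60). Plvap was higher by 1.42 (1.19 to 1.65) and Smoc1 by 1.50 (1.19 to 1.83) on the log2 scale. Cytl1 was lower, with a log2 fold change of -4.30 (-4.71 to -3.91), and had a UMI in 29 of 204 MI and 116 of 169 Sham members. Tmem100, a target of BMP signalling in endothelium, was at 24.5 CPM in MI and 152 CPM in Sham, a log2 fold change of -2.64 (-3.31 to -1.99), and Gata4 had a log2 fold change of -1.50 (-2.27 to -0.72). Vwf at 0.15 (-0.04 to 0.33), Cdh11 at 0.76 (0.54 to 0.99), Cgnl1 at -0.79 (-0.94 to -0.63) and Foxc1 at -0.85 (-1.18 to -0.52) stayed within 2-fold. With at least 2 Npr3 UMIs, Foxc1 was at -1.01 (-1.36 to -0.66), past 2-fold, and Cgnl1 at -0.95 (-1.11 to -0.78). At that limit 3 of 10 measured list genes were higher and 4 lower by 2-fold or more, with a median of -0.49. H19 and Igf2 were higher in MI Npr3-positive cells, by 1.42 (1.29 to 1.54) and 1.52 (1.35 to 1.68), and by 1.16 (1.04 to 1.29) and 1.18 (1.01 to 1.35) with at least 2 Npr3 UMIs.

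In the natriuretic peptide system few genes were measured. Of 12 list genes other than Npr3, 4 were measured between MI and Sham Npr3-positive cells, with 0 higher by 2-fold or more and 2 lower by 2-fold or more. Npr1, the guanylyl cyclase receptor for atrial natriuretic peptide, was at 29.3 (20.6 to 40.6) CPM in MI and 59.4 (38.4 to 87.7) CPM in Sham, a log2 fold change of -1.02 (-1.79 to -0.22). Its change lay between -0.90 and -0.76, short of 2-fold, under 6 alternatives, among them -0.87 (-1.75 to 0.05) with at least 2 Npr3 UMIs. Gucy1a3, a subunit of the nitric oxide receptor, was at 20.4 (13.2 to 30.1) CPM in MI and 147 (113 to 189) CPM in Sham, a log2 fold change of -2.85 (-3.59 to -2.16), whereas its partner subunit Gucy1b3 was at 104 and 87.9 CPM, a log2 fold change of 0.25 (-0.29 to 0.82). The cGMP-dependent kinase gene Prkg1 was at 30.2 CPM in MI and 28.5 CPM in Sham, a log2 fold change of 0.08 (-0.89 to 1.16). Npr2, the receptor for C-type natriuretic peptide, was at 13.9 CPM in MI and 11.9 CPM in Sham Npr3-positive cells.

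Cell cycle genes were higher in MI Npr3-positive cells. Of 12 measured list genes, 10 were higher by 2-fold or more and 0 lower by 2-fold or more, with a median log2 fold change of 1.79, while in Npr3-negative cells 1 of 10 was, with a median of 0.26. Ccnb2, a mitotic cyclin, was at 96.2 (79.6 to 115) CPM in MI and had 2 UMIs in Sham, a log2 fold change of 4.34 (2.45 to 7.40). Tyms, which makes thymidylate for DNA synthesis, was at 96.2 CPM in MI and 16.6 CPM in Sham, a log2 fold change of 2.53 (1.44 to 3.88). The UMIs of the list were concentrated in few cells: the highest cell held 159 of 2427 in MI and 118 of 273 in Sham, or 43.2%, so the Sham level rests on that cell. At least 3 cell cycle UMIs were present in 84 of 204 MI members, 41.2% (34.4 to 48.3), and in 11 of 169 Sham members, 6.51% (3.29 to 11.3). After thinning these shares were 10.3% in MI and 1.18% in Sham, beside 4.07% in MI and 3.92% in Sham Npr3-negative cells. With at least 2 Npr3 UMIs, each of the 12 measured genes was higher by 2-fold or more in MI, with a median of 3.45, and the changes were at least 3.48 for Ccnb2, which then had 0 Sham UMIs, and 3.42 (1.83 to 5.72) for Tyms. This limit left out the Sham cell with 118 list UMIs, which had 1 Npr3 UMI. Birc5 then also had 0 Sham UMIs, Cenpa had 2 and Tyms 3. Genes so low in Sham pass the filter only through MI and must then exceed 2-fold. The count of 12 is therefore only a description.

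Flow-responsive and vasoactive genes diverged. Klf2 and Klf4, transcription factors that rise with laminar shear stress in endothelium, were at 58.7 (45.9 to 73.9) and 35.1 (25.4 to 47.2) CPM in MI and at 506 (440.2 to 579) and 660.3 (585 to 743) CPM in Sham Npr3-positive cells. Their log2 fold changes were -3.11 (-3.51 to -2.72) and -4.24 (-4.73 to -3.77), beside -1.79 (-1.98 to -1.61) and -1.64 (-1.77 to -1.50) in Npr3-negative cells. Edn1, the vasoconstrictor endothelin 1, was at 1235 (1174 to 1299) CPM in MI and 188 (149 to 234) CPM in Sham, a log2 fold change of 2.72 (2.39 to 3.06). On the whole list of flow response and haemostasis, 4 of 12 measured genes were higher by 2-fold or more and 4 lower by 2-fold or more, with a median of -0.29. Selp, the adhesion molecule P-selectin, was at 162 CPM in MI and 9.50 CPM in Sham, a log2 fold change of 4.09 (2.71 to 5.98), and Vcam1 at 284 and 366 CPM, a log2 fold change of -0.37 (-0.64 to -0.08).

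Ligands, receptors and targets of growth factor pathways did not share a direction. Over all measured genes, 13.2% were higher and 10.6% lower by 2-fold or more in MI Npr3-positive cells. The shares of higher genes on the BMP and TGF-beta list and the VEGF list below lay near this. On the BMP and TGF-beta list, 2 of 16 measured genes were higher by 2-fold or more and 4 lower by 2-fold or more in MI, with a median of -0.54. Inhba, a subunit of activin, was at 11.4 (6.24 to 19.1) CPM in MI and 164 (128 to 207) CPM in Sham Npr3-positive cells, a log2 fold change of -3.84 (-4.79 to -3.00). The BMP target Id1 was at 33.4 CPM in MI and 261 CPM in Sham, a log2 fold change of -2.97 (-3.52 to -2.44), whereas Id2 was at 1259 and 1014 CPM, a log2 fold change of 0.31 (0.16 to 0.47). On the Notch list, 2 of 8 were higher by 2-fold or more and 2 lower by 2-fold or more, among them the ligand gene Dll1 at 6.52 CPM in MI and 61.8 CPM in Sham. On the list of VEGF, Tie and apelin genes, 1 of 8 was higher by 2-fold or more and 2 lower by 2-fold or more. The VEGF receptor Kdr was at 19.6 (12.5 to 29.1) CPM in MI and 245 (199.7 to 297) CPM in Sham, a log2 fold change of -3.64 (-4.35 to -2.99) and of -3.70 (-4.66 to -2.83) with at least 2 Npr3 UMIs, and Angpt1, a ligand of the receptor Tek, was at 84.0 CPM in MI and 11.9 CPM in Sham, a log2 fold change of 2.82 (1.55 to 4.47). Basement membrane genes gave 5 of 12 higher by 2-fold or more and 1 lower by 2-fold or more, with a median of 0.78. The collagen IV chain Col4a1 was at 384 CPM in MI and 242 CPM in Sham, below the 1884 and 852 CPM of Npr3-negative cells.

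Interferon-responsive genes and 5 of 10 immediate early genes were lower in MI. Of 6 measured interferon genes, 6 were lower by 2-fold or more in MI Npr3-positive cells, with a median of -1.93. The median in Npr3-negative cells was -1.96. With at least 2 Npr3 UMIs only 3 of these genes were measured, and 2 were lower by 2-fold or more, with a median of -2.02. Isg15, a ubiquitin-like protein, was at 17.1 CPM in MI and 80.8 CPM in Sham, a log2 fold change of -2.24 (-3.10 to -1.41). Rsad2, an antiviral enzyme, had 2 UMIs in MI and was at 92.6 CPM in Sham, a log2 fold change of -5.83 (-8.92 to -3.88) and of -4.70 (-7.86 to -2.61) with at least 2 Npr3 UMIs. Of 10 measured immediate early genes, 5 were lower by 2-fold or more and 0 higher by 2-fold or more, with a median of -1.09. Egr1 was at 368 CPM in MI and 876 CPM in Sham, a log2 fold change of -1.25 (-1.45 to -1.05), and Nr4a1 at 8.15 and 135 CPM, a log2 fold change of -4.05 (-5.19 to -3.07). Of 15 measured transcription factors of endothelium and heart, 1 was higher by 2-fold or more and 7 lower by 2-fold or more, with a median of -0.97.

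**Figure D5:**
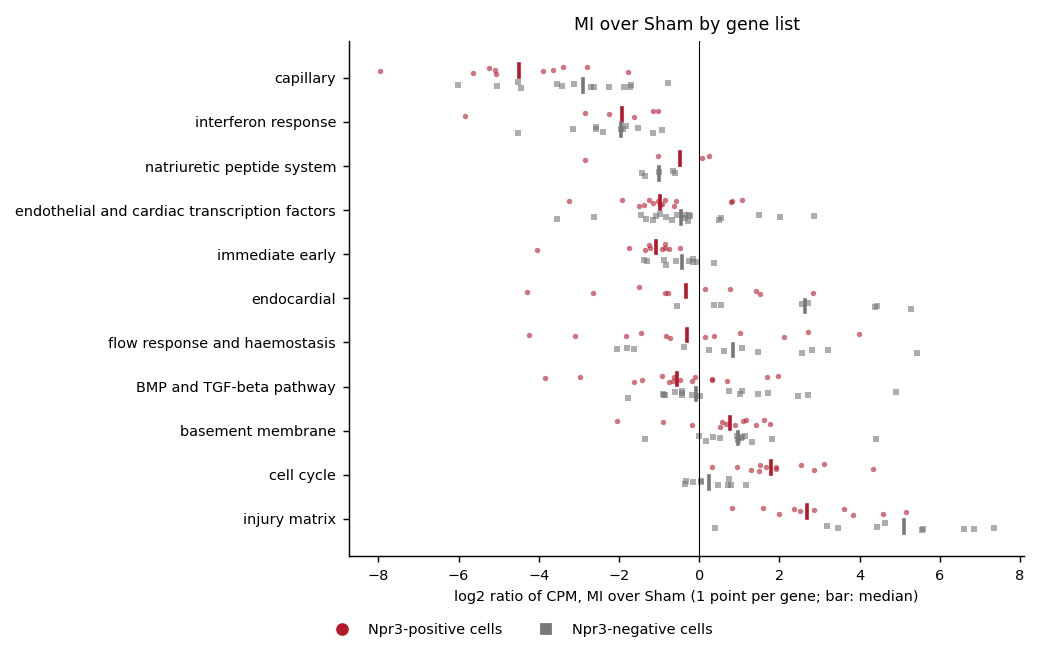
log2 fold changes of MI over Sham CPM for the measured genes of 11 lists, without the genes of the membership rule, in Npr3-positive (circles) and Npr3-negative cells (squares); each point is 1 gene, points with 0 UMIs in 1 library are at their bound, and bars are medians. The capillary bar of Npr3-positive cells is at -4.49 and the injury matrix bar at 2.68, and the cell cycle bars are at 1.79 in Npr3-positive and 0.26 in Npr3-negative cells.

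Markers of other cell types were measured in the same cells. Lymphocyte markers had 3 UMIs in MI and 9 in Sham Npr3-positive cells, with Cd3e at 0 in MI and Ms4a1, Cd79a and Cd79b at 0 in both. Macrophage markers, 7 of 7 detected, summed to 388 CPM in MI and 667 CPM in Sham, and mural markers, 8 of 8 detected, to 479 and 619.9 CPM. More than 2 UMIs over 6 immune genes were found in 9.31% of MI and 4.73% of Sham members. Lymphatic markers summed to 98.6 CPM in MI, where Ccl21a, Mmrn1 and Reln were at 0, and to 1157 CPM in Sham, where Reln was at 0. In 1 cell lay 36 of the 121 MI UMIs and in 1 cell 173 of the 487 Sham UMIs. Npr3-negative cells had these markers at 799 CPM in MI and 979 CPM in Sham. Lyve1, a hyaluronan receptor of lymphatic vessels that other cells also make, was at 47.3 CPM in MI and 565 CPM in Sham Npr3-positive cells. Cardiomyocyte markers summed to 437 CPM in MI and 68.9 CPM in Sham, and 83.2% of the MI UMIs of Tnnt2 lay in 1 cell. A doublet caller marked 10 of 204 MI and 14 of 169 Sham members, which were kept.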

How the data were processed

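The authors deposited 1 table of raw UMI counts by gene and barcode for each library; every barcode had at least 500 genes, a limit that no label states. The submitters' processing notes name mm10 and Seurat without a role; aligner, counter and gene models: not given in the sources used here. Libraries were amplified with 12 PCR cycles, per the labels' protocols. The MI and Sham tables shared 21745 genes, which entered the comparisons. Gene coordinates come from the GENCODE annotation of GRCm38, which is mm10.

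UMIs were summed over the cells of each group and divided by the group's total (CPM). Levels have exact Poisson intervals, shares Clopper-Pearson intervals and ratios conditional binomial intervals, all at 95% and covering counting error only. With 1 library per group no p-value was computed, and groups were compared by size, with 2-fold as the limit. A group with 0 UMIs was set to 3 counts over the group, which makes its ratio a bound. Ratios were tested on simulated data. Named genes were the 15 highest and 12 lowest in Npr3-positive cells of both libraries and the 12 highest and 12 lowest in MI, ranked by the interval bound nearest 1, plus up to 4 members of each of 29 gene lists and every measured endocardial and natriuretic gene. Mitochondrial, ribosomal protein, hemoglobin, sex-linked marker, Gm and Rik genes and the genes of the rule were left out of the ranking. The members, lists and naming rule were chosen with earlier results of these data known. Macrophages were gated by at least 4 UMIs over Lyz2, C1qa, C1qb and Csf1r and lymphocytes by at least 2 UMIs over T, B and NK cell genes, both with 0 endothelial UMIs. Barcodes ending in N, 12 MI and 22 Sham members, were kept. Scrublet in scanpy 1.11.5 called 1.74% of MI and 5.30% of Sham cells doublets, which were kept and removed as an alternative. Scripts ran in Python 3.11.15 with scipy 1.17.1 for the intervals, numpy 2.4.6, matplotlib 3.10.9 and anndata 0.12.19. Alternatives changed the limits of the rule, depth, scaling, summing and the filter.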

Additional observations from a re-analysis of the deposited data

Results flagged for a closer look

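Inhba, a subunit of activin, had opposite ratios of MI over Sham in the 2 kinds of cell. It was at 11.4 (6.24 to 19.1) CPM in MI and 164 (128 to 207) CPM in Sham Npr3-positive cells, a log2 fold change of -3.84 (-4.79 to -3.00), and at 68.6 (56.1 to 82.9) CPM in MI and 12.3 (9.27 to 16.1) CPM in Sham Npr3-negative cells, a log2 fold change of 2.47 (1.99 to 2.97). The Npr3-negative levels rest on few cells, since 1 cell held 44.3% of the Inhba UMIs in MI and 1 cell 57.4% in Sham. Lyve1, whose protein binds hyaluronan, was at 47.3 (35.9 to 61.1) CPM in MI and 565 (496 to 642) CPM in Sham Npr3-positive cells, a log2 fold change of -3.58 (-4.02 to -3.16), and at 265 (240.1 to 292) CPM in MI and 163 (152 to 176) CPM in Sham Npr3-negative cells, a log2 fold change of 0.70 (0.52 to 0.88). In MI Npr3-positive cells, 53.4% of the Lyve1 UMIs lay in 1 cell. With 1 library per group the difference between the ratios was not tested for either gene.

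Outside the endothelial cells, Npr3 was at 574 CPM in Sham cells gated as mesothelial, above the 3.74 CPM of Sham macrophages and the 3.39 CPM of MI mesothelial cells. A UMI was present in 45.1% (34.6 to 55.8) of the 91 Sham cells, with at most 20 UMIs in a cell, and in 3% of the 200 MI cells.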

How the results depend on the processing

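The share of Npr3-positive cells stayed between 35.4% and 38.2% in MI and between 7.15% and 8.00% in Sham under 5 alternatives: at most 10% mitochondrial UMIs, at least 3 endothelial UMIs, doublets removed, barcodes ending in N left out, and cells with more than 2 immune UMIs left out. It was 18.8% in MI and 4.99% in Sham with each cell thinned to 500 UMIs before the rule, and 41.0% and 10.4% with only cells of at least 1500 UMIs. The counts of genes at least 2-fold higher and lower in Npr3-positive cells of both libraries were 56 and 68 after thinning and 563 and 475 with no filter on low counts, and the counts between MI and Sham were 148 higher and 122 lower after thinning and 1691 and 1974 with no filter. Thinning leaves fewer UMIs and so fewer measured genes. Under the other alternatives the 4 counts stayed within 188 to 236, 209 to 274, 888 to 1096 and 607 to 808 genes. Median-of-ratios scaling added 0.13 to each log2 ratio of MI over Sham. Among named-gene ratios of 2-fold or more, 5 took the other sign, that of Meox2 only as a bound. Cd74 in MI over Sham was 0.36 without cells with more than 2 immune UMIs. Robo4 in MI over Sham was 1.05 after thinning. Dll1 and Meox2 in MI Npr3-positive over Npr3-negative cells were both 0.12 after thinning. Meox2 then had a UMI in 0% of MI Npr3-positive cells, so its value is an upper bound set by the floor and shows no change of sign. Tnnt2 in the same comparison was -0.40 without the cell with most UMIs, an alternative chosen after seeing the data. The cause was not tested for Cd74, Robo4 and Dll1. Besides sign changes, thinning took 66 of 119 named ratios of MI Npr3-positive over Npr3-negative cells outside their counting interval. The numbers were 42 of 107 for the same comparison in Sham and 69 of 115 for MI over Sham. In the same order, 11, 4 and 5 ratios fell under 2-fold. Nav3 and Lmo1 then had 0 UMIs in MI Npr3-positive cells, and their bounds there were -0.37 and -0.14. No paired analysis was possible because each group had 1 library. Depth limits genes with few UMIs in 1 group, whose intervals are wide, and no interval covers variation between hearts.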

Other observations

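The single genes of the next sentences were chosen after their values were seen and stand for no list. Cd59a, which blocks the membrane attack complex, was at 509 CPM in MI and 739 CPM in Sham Npr3-positive cells and at 229 and 226 CPM in Npr3-negative cells. Daf2, the close copy of Cd55 with which it can share reads, was at 199.7 CPM in MI and 21.4 CPM in Sham Npr3-positive cells, a log2 fold change of 3.22 (2.28 to 4.37). C3, the central complement component, was at 7.34 CPM in MI and 61.8 CPM in Sham Npr3-positive cells, a log2 fold change of -3.07 (-4.35 to -1.93), and Serping1, which inhibits the first complement component, at 45.7 and 90.3 CPM, a log2 fold change of -0.98 (-1.60 to -0.35). The imprinted gene Cdkn1c, an inhibitor of cell cycle kinases, was at 673 CPM in MI and 233 CPM in Sham Npr3-positive cells, a log2 fold change of 1.53 (1.23 to 1.85), and at 95.1 and 311 CPM in Npr3-negative cells, a log2 fold change of -1.71 (-1.97 to -1.46). Peg3 was at 47.3 CPM in MI and 99.8 CPM in Sham Npr3-positive cells, a log2 fold change of -1.08 (-1.67 to -0.47), Ndn at 22.0 and 19 CPM, a log2 fold change of 0.21 (-0.97 to 1.56), and Dlk1 had 0 UMIs in both. Igf2r, the receptor that clears Igf2, was at 254 CPM in MI and 121 CPM in Sham Npr3-positive cells.

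Igfbp5 and Mgp set Npr3-positive cells apart unequally in the MI and Sham libraries. For Igfbp5, Npr3-positive over Npr3-negative cells gave log2 fold changes of -1.77 in MI and 3.03 in Sham, so the direction of the summed levels was reversed. For Mgp they were 2.10 in MI and 3.80 in Sham. The share of cells with an Igfbp5 UMI was not reversed. It was 25% in Npr3-positive and 12.5% in Npr3-negative cells of MI, and 58.0% and 9.51% in those of Sham. These shares were not thinned, and Npr3-positive cells were deeper. The MI Npr3-negative level came from 718 UMIs in 46 cells, 1 of which held 11.7%. Igfbp5, a binding protein of insulin-like growth factors, was at 136 (116 to 158) CPM in MI and 2259 (2117 to 2407) CPM in Sham Npr3-positive cells, a log2 fold change of -4.05 (-4.30 to -3.81), and at 464 and 277 CPM in Npr3-negative cells. Mgp, an inhibitor of calcification, was at 6218 CPM in MI and 5793 CPM in Sham Npr3-positive cells, a log2 fold change of 0.10 (0.04 to 0.17), and at 747 CPM in MI lymphocytes. Neutrophil genes appeared in few MI cells: S100a8 was at 269 CPM in MI and 0 UMIs in Sham Npr3-positive cells, and 55.8% of its UMIs lay in 1 cell.

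On the remaining lists, values of MI over Sham in Npr3-positive cells were smaller or rested on few genes. Over all measured genes, 13.2% were higher and 10.6% lower by 2-fold or more in this comparison. For arterial genes, 2 of 8 measured were higher by 2-fold or more and 2 lower by 2-fold or more, among them Gja4, a gap junction gene, at 569 CPM in MI and 52.3 CPM in Sham. For venous genes 2 of 5 were higher by 2-fold or more and 1 lower by 2-fold or more, and for endothelial activation 3 of 7 and 1. For hyaluronan genes 1 of 5 was higher by 2-fold or more, the proteoglycan gene Vcan at 99.5 CPM in MI and 21.4 CPM in Sham, and Hapln1 had 0 UMIs in MI and 3 in Sham. Of 4 MHC class II genes, 1 was lower by 2-fold or more: Cd74, the invariant chain, was at 53.0 CPM in MI and 162 CPM in Sham, a log2 fold change of -1.61 (-2.12 to -1.10). It was 0.36 without cells with more than 2 immune UMIs and -0.58 without barcodes ending in N. Of 2 neuregulin and ErbB genes 1 was higher by 2-fold or more, Nrg1. Of 7 pan-endothelial genes outside the rule, 0 were higher by 2-fold or more and 2 lower by 2-fold or more, with a median of -0.82, and 1 mesothelial gene, Gpm6a, was measured at 164 CPM in MI and 185 CPM in Sham.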
